A study of Mus musculus with 21 samples.

Results

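The 42 collagen chain genes with a probe set on the array are described here in mouse pluripotent cells, fibroblasts and male germ cells. A gene was a member where its symbol had the form Col, digits, a, digits and at least 1 probe set carried that symbol alone. The members made up 42 of 18193 genes and were represented by 82 probe sets. A gene is represented by whichever of its probe sets had the highest average. By the structure of the protein, 11 are fibrillar collagens, 9 form networks and 22 are of other kinds.

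RNA of 7 groups was measured on 21 Affymetrix arrays, 3 per group. The androgenetic haploid embryonic stem (ahES) lines AH129-5, AH129-N1 and AH129-NC1, whose chromosomes come from a father alone, and the diploid embryonic stem (ES) lines CS1-1 and R1 all had a 129 Sv background and the medium was N2B27 plus 2i and LIF. Mouse embryonic fibroblasts (MEF) had a CD1 background and were grown in DMEM with serum, so cell type, strain and medium cannot be told apart in comparisons with MEF. Round sperm, post-meiotic male germ cells with 1 set of chromosomes, came fresh from testis of 129 Sv background. Haploid ES cells and round sperm were sorted for haploid cells in G0/G1 per the labels, which state no sort for diploid ES cells or MEF. The labels do not say whether ES cells were grown on a layer of other cells. Replicates were labelled biological without separate cultures or animals being named, and p-values measure the spread between these arrays.

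Collagens are proteins of 3 chains wound into a triple helix. Fibrillar collagens, such as types I, III and V, are secreted as procollagen, trimmed and crosslinked into the fibres of connective tissue, and fibroblasts are their main source. Type IV collagen forms the sheet of basement membranes, and other types join fibrils, anchor epithelia or sit in the cell membrane. In some types, though not in all, the chains of 1 trimer are made by different genes. Col1a1 and Col1a2 are used together for the common form of type I, and Col4a1 and Col4a2 for the common form of type IV.

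Promoter windows of 4 members are shown because the genes of type I and III fibres and of the type IV network lay at the centre of the results and have unlike starts. Each window runs from 250 bases before to 50 bases after the annotated start, 5′ to 3′ on the gene's strand, from RefSeq on GRCm38.p6, where 33 of the 42 members matched. Capitals mark matches, on either strand, to the TATA box with the letters TATAAA, to the CCAAT box with the letters CCAAT and to the GC box with the letters GGGCGG. No matches overlap in the windows shown.
Col1a2: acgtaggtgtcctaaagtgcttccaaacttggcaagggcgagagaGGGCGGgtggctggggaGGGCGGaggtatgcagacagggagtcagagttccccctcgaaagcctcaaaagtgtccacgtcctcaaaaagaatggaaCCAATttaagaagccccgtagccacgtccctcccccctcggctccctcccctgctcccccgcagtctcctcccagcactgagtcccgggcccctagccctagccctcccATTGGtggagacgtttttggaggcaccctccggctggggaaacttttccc
Col3a1: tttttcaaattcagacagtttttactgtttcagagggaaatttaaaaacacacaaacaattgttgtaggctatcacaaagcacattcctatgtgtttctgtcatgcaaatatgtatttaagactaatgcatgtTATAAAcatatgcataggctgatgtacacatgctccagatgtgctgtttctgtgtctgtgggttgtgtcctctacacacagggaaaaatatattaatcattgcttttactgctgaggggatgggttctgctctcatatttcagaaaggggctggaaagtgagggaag
Col4a1: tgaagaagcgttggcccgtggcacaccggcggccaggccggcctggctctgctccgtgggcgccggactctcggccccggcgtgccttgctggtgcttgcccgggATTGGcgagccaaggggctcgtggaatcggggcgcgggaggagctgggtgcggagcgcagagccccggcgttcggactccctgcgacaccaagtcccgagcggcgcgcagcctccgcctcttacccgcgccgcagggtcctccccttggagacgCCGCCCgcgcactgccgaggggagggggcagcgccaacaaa
Col4a2: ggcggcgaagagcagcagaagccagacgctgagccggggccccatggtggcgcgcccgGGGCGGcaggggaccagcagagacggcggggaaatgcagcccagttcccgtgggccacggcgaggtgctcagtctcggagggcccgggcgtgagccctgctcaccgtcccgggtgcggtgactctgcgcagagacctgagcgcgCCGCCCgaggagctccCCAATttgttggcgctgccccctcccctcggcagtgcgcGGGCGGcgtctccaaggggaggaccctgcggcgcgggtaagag

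The Col1a2 window lies at chr6:4505368-4505667 on the plus strand and holds 2 CCAAT boxes, 2 GC boxes and 13 CpG. The Col3a1 window, chr1:45311288-45311587 on the plus strand, holds 1 TATA box and 0 CpG. Col4a1 and Col4a2 lie head to head on opposite strands, with starts 21 bases apart. Each start lies within the first 50 bases after the other, so the annotated starts overlap rather than leave a gap. The windows chr8:11312777-11313076 (minus strand) and chr8:11312555-11312854 (plus strand) share 78 bases. These are rich in CpG, with 37 and 33, against a median of 7 over the 32851 windows of all genes. At least 37 CpG were held by 5.58% of all windows. A TATA box was present in 13.6% of all windows and in 5 of 36 collagen windows, a CCAAT box in 37.4% and in 13 of 36, and a GC box in 35.7% and in 22 of 36. A match describes the letters only.

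Values are levels, log2 of the MAS5 signal plus an offset of 9.70 signal units. Levels of different probe sets are not comparable with each other, so each gene is compared with itself across groups. Arrays of 1 group correlated at 0.967 to 0.983 across genes, and for 21 of 21 arrays the closest other array came from the same group. The 5 pluripotency markers (Pou5f1, Nanog, Sox2, Zfp42 and Esrrb) were above background on every ES array, and the 5 spermatid markers (Prm1, Prm2, Tnp1, Tnp2 and Acrv1) on every round sperm array. The Gapdh 3′ minus 5′ control difference was 0.37 to 0.70 in round sperm and −0.35 to −0.09 in the other groups. The same difference for Actb was 0.50 to 1.00 in round sperm, 0.45 to 0.62 in ahES cells, 0.52 to 0.63 in diploid ES cells and 0.28 to 0.39 in MEF. Round sperm thus stood apart by the Gapdh control but overlapped ES arrays by the Actb control. Whether RNA quality differed, and its part in the round sperm values, was not tested.

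Counting a collagen as detected where its 3 arrays each exceeded the 40th percentile, there were 30 of 42 in MEF, 25 in round sperm, 25 in AH129-N1, 23 in AH129-NC1, 23 in R1, 22 in AH129-5 and 20 in CS1-1. By the same rule, 62.6% of all genes were detected in MEF, 63.8% in round sperm and 62.7% to 64.1% in the ES lines. The highest group mean was that of MEF for 9 fibrillar, 5 network and 8 other collagens, and that of round sperm for 2 fibrillar, 4 network and 10 others. The remaining 4 were highest in AH129-5 (1), AH129-NC1 (1) or CS1-1 (2). Shares of all genes by highest group were not computed, so these counts only describe the members. Among members at the lowest levels, Col10a1, the network collagen of growing cartilage, had group means of 3.66 to 5.24, and Col4a3, Col6a4, Col6a5 and Col9a2 were also near background in all 7 groups by the probe set used. A mean at or under the 40th percentile, about 5.44 to 5.60 on this scale, is called near background.

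**Figure D1:**
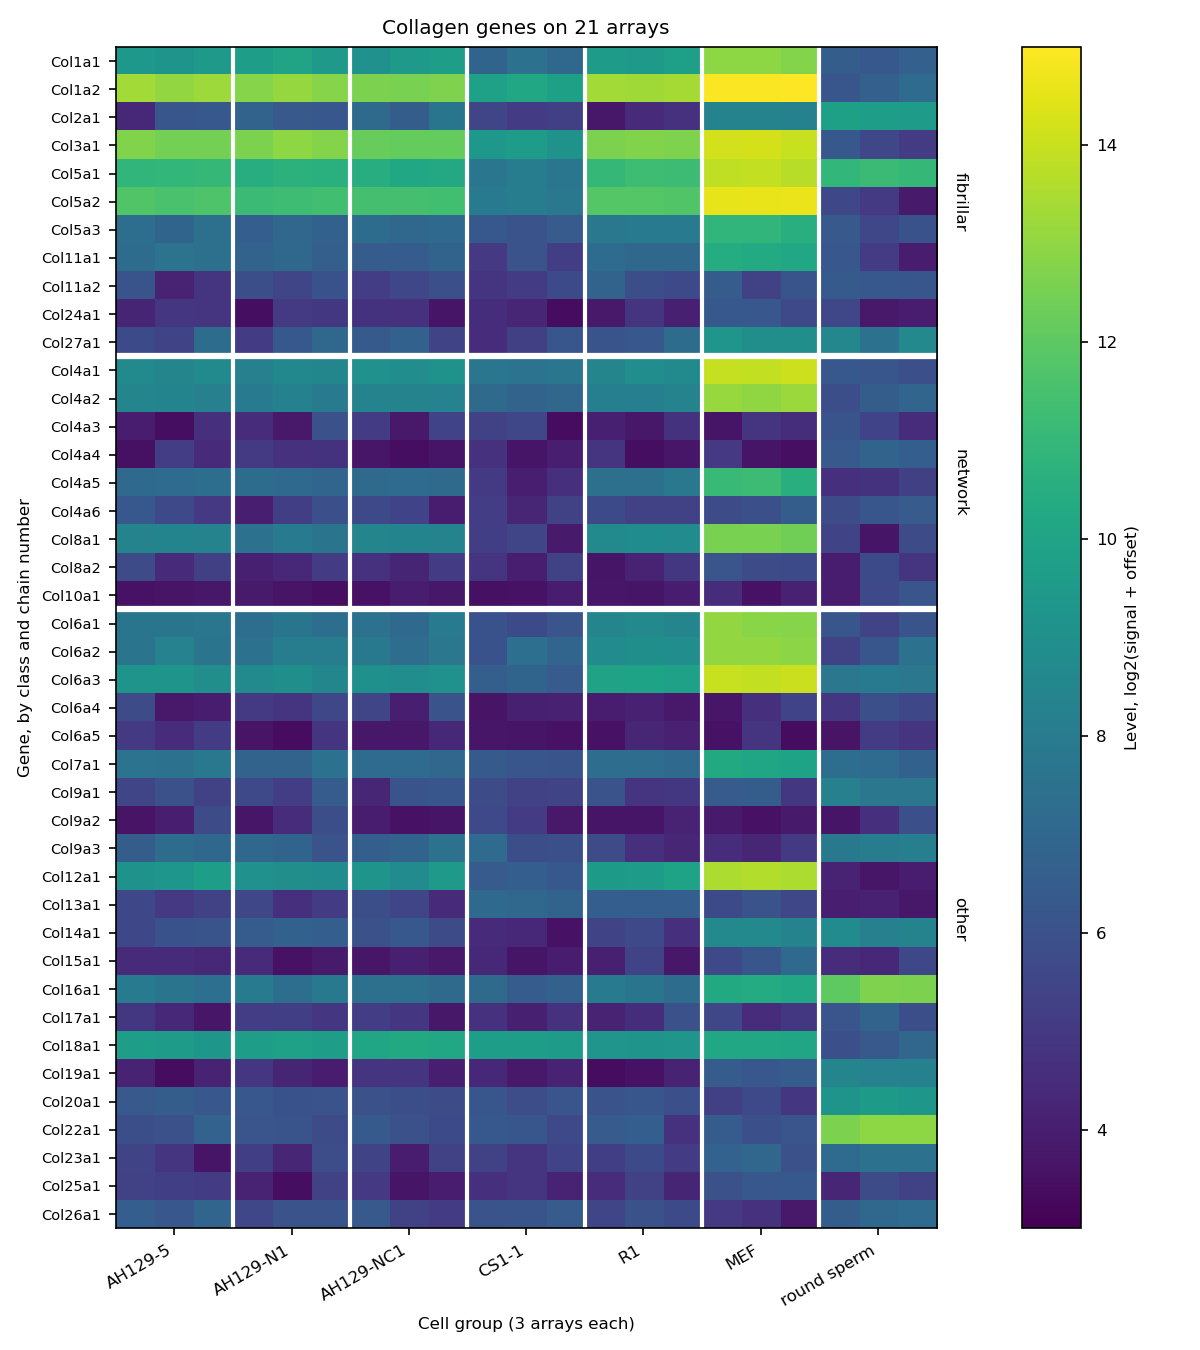
Levels, log2(signal + offset), of the 42 collagen genes (rows, by class and chain number) on the 21 arrays (columns, 3 per group). MEF arrays are high for most fibrillar and network chains, CS1-1 arrays are lower than the other ES arrays for genes such as Col1a2 and Col5a2, and round sperm arrays are high for Col16a1, Col20a1 and Col22a1; colours of different rows are not to be compared.

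The comparison of MEF with ahES cells asks how collagen expression of fibroblasts differs from that of haploid pluripotent cells. Of the 42 collagens, 34 passed the filter on low values, 26 were higher in MEF, 2 were lower and 6 did not pass. A gene passed at an adjusted p under 0.05 and a difference of at least 2-fold in limma, with p-values adjusted by Benjamini-Hochberg over all genes tested. Of all 13230 genes tested, 21.1% were higher and 21.2% lower, 42.3% in all. The median difference over the 34 collagens was 2.31 log2 units, against −0.08 over all genes tested. Of the 26, 6 (Col8a2, Col15a1, Col19a1, Col23a1, Col24a1 and Col25a1) were near background in ahES cells and passed the filter through MEF alone, so their count supports nothing by itself. Among them, Col8a2 lost the call without AH129-5 replicate 2 (0.99) or without MEF replicate 1 (0.96). The 8 members left out by the filter were Col4a3, Col4a4, Col6a4, Col6a5, Col9a1, Col9a2, Col10a1 and Col17a1.

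Among fibrillar collagens, 10 of 11 were higher in MEF. Col1a1, a chain of the type I fibre of skin and bone, was 12.97, 12.97 and 12.77 on the MEF arrays, and on the 9 ahES arrays its lowest, median and highest levels were 9.07, 9.50, 10. The groups did not overlap, and the difference was 3.40 ± 0.14 log2 units (SE; 10.6-fold; limma adjusted p = 5.49e-15). Its partner Col1a2 was 14.92, 14.94 and 15.02 in MEF and 12.61 to 13.35 in ahES cells (median 12.82), a difference of 2.04 ± 0.13 (4.11-fold; limma adjusted p = 2.55e-11). All MEF arrays were high and all ahES arrays lower, with no overlap. The other Col1a2 probe sets gave larger differences, 3.22 and 4.71, the latter over near-background levels in ahES cells.

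Col3a1, the type III chain that mixes with type I in skin and vessels, was 14.19, 14.22 and 13.98 in MEF and 12.18 to 12.96 in ahES cells (median 12.51). This was the smallest difference of the type I, III and V chains, 1.61 ± 0.16 (3.05-fold; limma adjusted p = 2.69e-08). Type V chains, which set the width of fibrils, differed more. Col5a1 was 13.84, 13.91 and 13.73 in MEF against 10.21 to 10.98 in ahES cells (9.24-fold), and Col5a2 was 14.56, 14.61 and 14.65 against 11.19 to 11.76 (8.90-fold). Neither gene overlapped between the groups, and both passed in limma (adjusted p = 3.61e-18 and 7.17e-11). Col11a1, a chain of cartilage fibrils, was 10.2-fold higher in MEF, Col5a3 13.4-fold, and Col2a1, the main cartilage collagen, 3.76-fold. Col11a2 did not pass (0.52 ± 0.36; limma adjusted p = 0.193).

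Col4a1, the more abundant chain of the common type IV trimer, was 13.93, 13.90 and 14.07 in MEF and 8.20 to 9.12 in ahES cells. MEF were 38.6-fold higher (5.27 ± 0.11; limma adjusted p = 7.61e-20). Its head-to-head neighbour Col4a2 was 13.15, 13.02 and 13.19 in MEF against 7.93 to 8.44, 29.2-fold higher (limma adjusted p = 2.56e-17). For these neighbours every MEF array was far above every ahES array. The other pair of neighbours, on the X chromosome with starts 1343 bases apart, moved unequally. Col4a5, a chain of kidney basement membrane, was 11.11, 11.23 and 10.55 in MEF and 6.92 to 7.33 in ahES cells, 14-fold higher (limma adjusted p = 2.89e-13). Col4a6 was 5.77, 5.94 and 6.56 in MEF and 3.95 to 6.29 in ahES cells, where its mean was near background, and did not pass (0.85 ± 0.40; limma adjusted p = 0.0605). Whether the neighbours differ from each other was not tested. Col8a1, a short-chain network collagen of vessels and cornea, was 20.7-fold higher in MEF.

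Of the 22 other collagens, 17 were tested, 11 were higher in MEF and 2 lower. Type VI collagen forms beaded filaments around cells. Its chains Col6a1, Col6a2 and Col6a3 had large differences, while Col6a4 and Col6a5 were left out by the filter. Col6a1 was 13.06, 12.88 and 12.81 in MEF against 7.12 to 7.95 in ahES cells, the largest difference of any collagen in this comparison (5.37 ± 0.16; 41.3-fold; limma adjusted p = 3.43e-17). Col6a2 was 13.06, 13.04 and 12.92 against 7.31 to 8.33 (37.3-fold; limma adjusted p = 2.15e-11). Col6a3 was 14, 13.89 and 14.06 against 8.50 to 9.20 (32.9-fold; limma adjusted p = 1.75e-20). No array of either group overlapped for the 3 chains. Col12a1, which lines type I fibrils, was 13.53, 13.63 and 13.53 in MEF and 8.79 to 9.71 in ahES cells (21.2-fold; limma adjusted p = 3.21e-17). Col7a1, the anchoring fibril of skin, was 7.18-fold higher. Of the remaining members that passed, Col8a2, Col24a1, Col25a1, Col23a1, Col19a1 and Col15a1, near background in ahES cells, were at least 1.29- to 2.06-fold higher in MEF, and Col14a1, Col16a1 and Col27a1 differed by 2.37 to 2.88 log2 units.

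Both genes lower in MEF were near background there. Col9a3, a cartilage collagen chain, was 4.51, 4.27 and 5.06 in MEF and 6.07 to 7.47 in ahES cells, at least 2.67-fold lower in MEF (limma adjusted p = 2.41e-06). Col26a1, first described in gonads, was 5.0, 4.70 and 3.82 and 5.10 to 6.90, at least 1.5-fold lower (limma adjusted p = 6.1e-05). Here "at least" means that the array's 40th percentile stood in for lower values. Col18a1, the basement membrane collagen that gives endostatin, was 10.19, 10.18 and 10.08 in MEF and 9.35 to 10.28 in ahES cells. The groups overlapped, and the difference of 0.33 ± 0.13 was under 2-fold (limma adjusted p = 0.0334).

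Against the 6 arrays of diploid ES cells, which share the MEF arrays with the comparison above, 34 collagens were again tested, with 26 higher in MEF (22.2% of all 13026 genes tested) and 3 lower (22.6%; 44.8% either way). The median difference was 3.21 over these collagens and −0.10 over all genes tested. Of the 26, 8 (Col2a1, Col8a2, Col14a1, Col15a1, Col19a1, Col23a1, Col24a1 and Col25a1) were near background in diploid ES cells and passed the filter through MEF alone, so their count supports nothing by itself. Col4a1 was 55.4-fold higher in MEF, Col6a3 52-fold and Col6a1 51.2-fold. Diploid ES arrays ran from 6.46 to 9.95 for Col6a3, with CS1-1 low and R1 high. The 3 lower genes were Col26a1, Col9a3 and Col13a1, a transmembrane collagen. Col13a1 was 5.70, 6.09 and 5.54 in MEF, 7.09, 7.07 and 6.81 in CS1-1 and 6.59, 6.59 and 6.59 in R1, 2.02-fold lower in MEF without overlap (limma adjusted p = 0.00371). Col13a1 fell under 2-fold without CS1-1 replicate 1 (−0.99), CS1-1 replicate 2 (−0.995), MEF replicate 1 (−0.98) or MEF replicate 3 (−0.90), and Col9a3 without CS1-1 replicate 1 (−0.79), R1 replicate 1 (−0.80), MEF replicate 1 (−0.96) or MEF replicate 2 (−0.84).

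**Figure D2:**
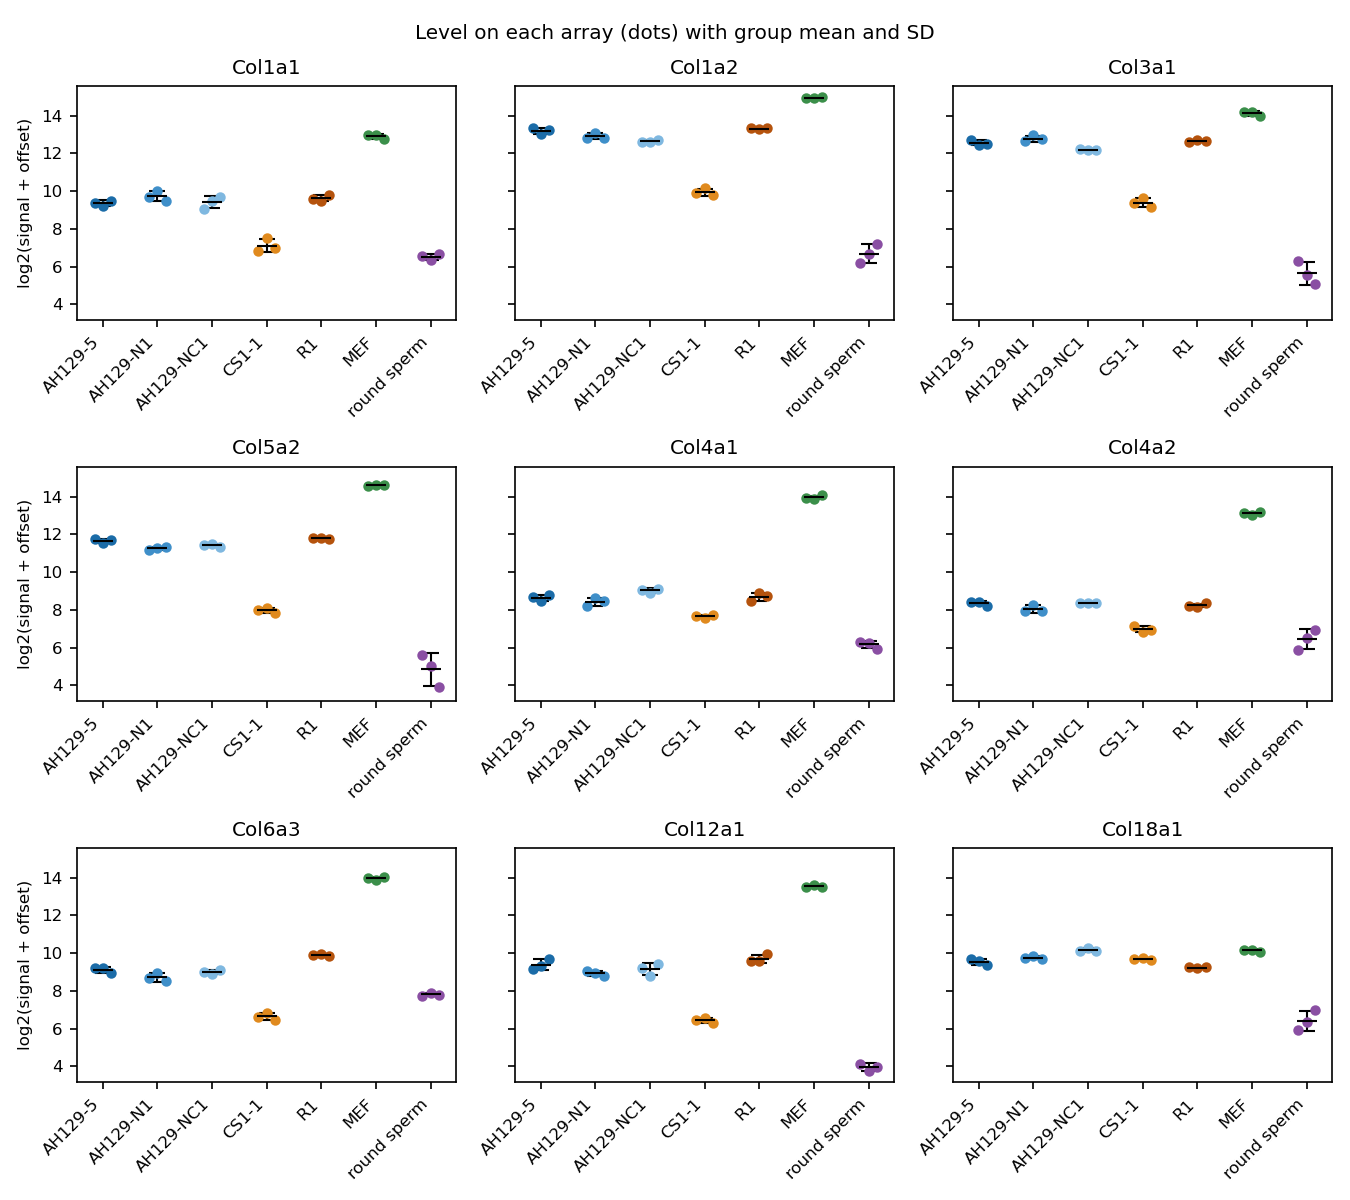
Level, log2(signal + offset), of 9 collagen genes on each array (dots) with the mean and SD of each group of 3 arrays. MEF is the top group for 8 of them, CS1-1 lies under the other ES lines for all but Col18a1, and Col18a1 is similar in MEF and ES lines, at 9.23 to 10.17.

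For the 32 collagens above background in MEF, the mean deposited log2 signal of each ES line minus that of MEF was returned to a percent. Since these 32 were chosen by their MEF level, a low percent supports nothing by itself. The median was 13.7% in AH129-5, 11.3% in AH129-N1, 12.0% in AH129-NC1, 14.3% in R1 and 4.78% in CS1-1. Fibrillar chains had medians of 13.0% in AH129-5, 11.5% in AH129-N1, 12.1% in AH129-NC1, 14.6% in R1 and 3.67% in CS1-1. By the probe sets used, Col3a1 was at 34% of MEF in AH129-5, 36.3% in R1 and 3.67% in CS1-1, and Col1a2 at 29.7%, 32.2% and 3.08%. In AH129-5 and R1 both were above these medians. The Col1a2 percents hold for the probe set used, since the others differed more between MEF and ahES cells (3.22 and 4.71 log2 units, against 2.04). Col6a1 and Col4a1 were below, at 2.53% and 2.41% in AH129-5 and 0.676% and 1.20% in CS1-1. In bulk RNA, fewer cells of a type and less RNA per cell cannot be told apart.

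Several fibroblast markers that are not collagens were also above background in ES lines. Of a list of 12, 11 were on the array (Thy1, Pdgfrb, Twist1, Twist2, Prrx1, Snai2, Dcn, Lum, Postn, Fap and S100a4). On single arrays, 8 to 11 of the 11 lay above the 40th percentile in the ahES lines and R1, and 6 to 8 in CS1-1, and none was listed at 0. Of all genes, 62.7% to 64.1% lay above it on all 3 arrays of an ES line, and the CS1-1 count was near that share. That rule is stricter than a count on single arrays, for which the share of all genes was not computed. The marker counts therefore only describe the markers. Their summed signal was 6513 to 7258 in AH129-5, 4897 to 5998 in AH129-N1, 6185 to 6512 in AH129-NC1, 7036 to 7700 in R1, 1166 to 1296 in CS1-1 and 99332 to 100483 in MEF. The median marker was at 3.93% of MEF in AH129-5, 2.93% in AH129-N1, 4.26% in AH129-NC1, 4.52% in R1 and 1.14% in CS1-1. Dcn, a proteoglycan that binds collagen fibrils, reached 33.1% in AH129-NC1, while S100a4 was at 1.60% there. The part of these markers in the collagen levels was not tested.

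**Figure D3:**
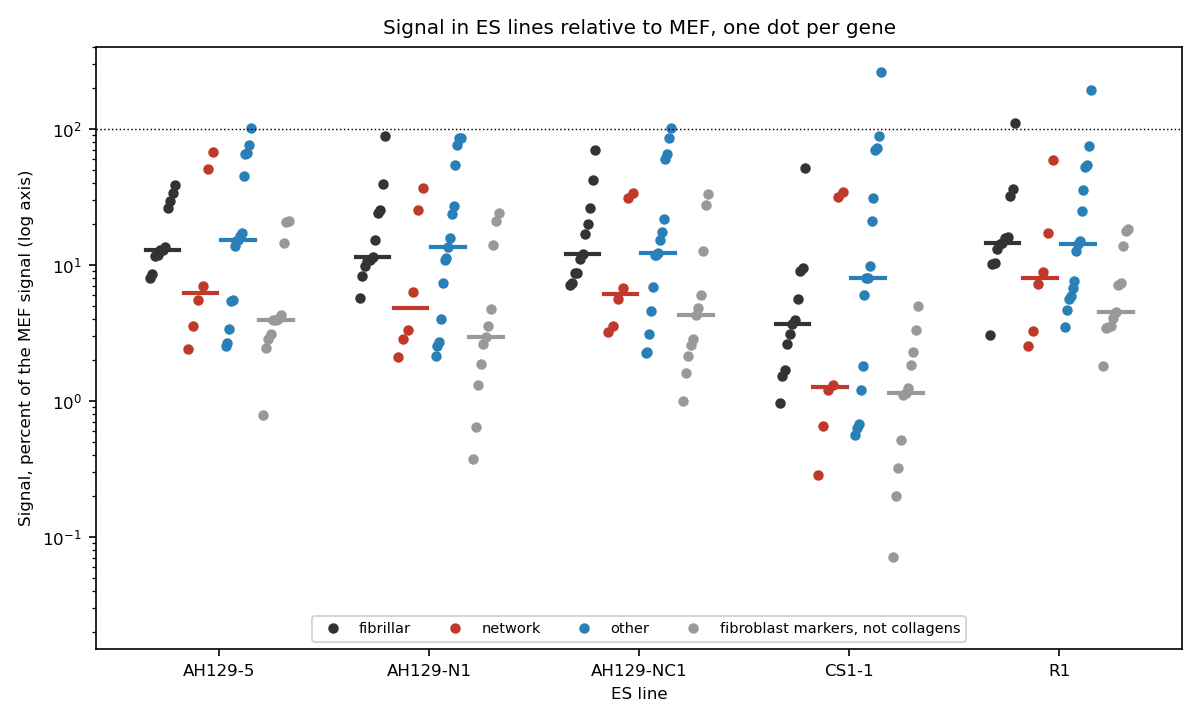
Signal in each ES line as a percent of the MEF signal (log axis), 1 dot per gene with a bar at the median, for 32 collagens by class and 11 fibroblast markers. CS1-1 has the lowest medians for each group of genes, 3.67% for fibrillar collagens and 1.14% for the markers.

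The diploid lines CS1-1 and R1 differed in many collagens. Of 42 members, 25 were tested, 15 were higher in R1 (5.70% of all 12098 genes tested) and 1 was lower (4.18%; 9.89% either way). The median difference, R1 minus CS1-1, was 1.62 over these collagens and −0.02 over all genes tested. By class, 7 of 9 fibrillar chains tested, 4 of 4 network chains and 4 of 12 other chains were higher in R1. These counts hold 3 genes, Col4a5, Col8a1 and Col11a1, that were near background in CS1-1 and passed the filter through R1 alone, so their count supports nothing by itself.

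For Col5a2 the R1 arrays were 11.83, 11.84 and 11.75 and the CS1-1 arrays 8.0, 8.10 and 7.82. The lines were far apart, 3.84 ± 0.07 log2 units (14.3-fold; limma adjusted p = 2.93e-18). Col1a2 was 13.33, 13.28 and 13.36 in R1 and 9.88, 10.16 and 9.82 in CS1-1 (10.3-fold; limma adjusted p = 2.1e-15), and its partner Col1a1 9.61, 9.49 and 9.79 and 6.85, 7.50 and 7.0 (5.73-fold; limma adjusted p = 1.83e-09). Col3a1 was 12.61, 12.72 and 12.68 in R1 and 9.38, 9.63 and 9.14 in CS1-1 (9.78-fold; limma adjusted p = 5.7e-14). Every R1 array was above every CS1-1 array for these type I, III and V chains. Col5a1 followed at 11.01, 11.29 and 11.21 and 7.73, 8.11 and 7.70 (10.0-fold; limma adjusted p = 1.62e-15).

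Of the 6 type IV genes, the 3 tested, Col4a1, Col4a2 and Col4a5, were higher in R1, and Col4a3, Col4a4 and Col4a6 were left out by the filter. Col4a1 was 8.45, 8.90 and 8.73 in R1 and 7.70, 7.59 and 7.70 in CS1-1 (2.04-fold; limma adjusted p = 2.32e-06), and Col4a2 8.20, 8.17 and 8.35 and 7.16, 6.83 and 6.95 (2.39-fold; limma adjusted p = 1.3e-07). Col4a1 lay so close to 2-fold that it lost the call without CS1-1 replicate 2 (0.99) or without R1 replicate 2 (0.92). Col4a5, near background in CS1-1 at 5.04, 4.02 and 4.61, was 7.42, 7.41 and 7.81 in R1, at least 4.31-fold higher (limma adjusted p = 1.85e-09). Col8a1 went from 5.24, 5.51 and 3.86 in CS1-1 to 8.68, 8.85 and 8.80 in R1, at least 10.0-fold (limma adjusted p = 3.51e-09).

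Col6a3 was 9.93, 9.95 and 9.86 in R1 and 6.63, 6.85 and 6.46 in CS1-1 (9.64-fold; limma adjusted p = 5.7e-14), Col6a1 8.45, 8.64 and 8.47 and 6.04, 5.68 and 6.15 (5.92-fold) and Col6a2 8.77, 8.99 and 8.90 and 6.0, 7.40 and 6.91 (4.34-fold). Col12a1 was 9.56, 9.59 and 9.94 and 6.43, 6.57 and 6.31 (9.59-fold; limma adjusted p = 2.49e-12). None of the 4 overlapped between the lines. Col9a3 went the other way, 5.76, 4.64 and 4.31 in R1, near background, and 7.21, 5.90 and 5.92 in CS1-1, at least 1.67-fold lower in R1 (limma adjusted p = 0.00583). Col18a1 was 9.26, 9.19 and 9.24 in R1 and 9.69, 9.73 and 9.65 in CS1-1, lower in R1 by under 2-fold (−0.46 ± 0.08; limma adjusted p = 0.000145).

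The 3 ahES lines together were compared with each diploid line in the same fit, so that the comparisons share arrays and are given side by side. Against CS1-1, 26 collagens were tested, 17 were higher in ahES cells (8.19% of all 12746 genes tested) and 1 was lower (5.52%; 13.7% either way), with a median difference of 1.20 against −0.03 over all genes tested. Of the 17, 5 (Col2a1, Col4a5, Col8a1, Col11a1 and Col14a1) were near background in CS1-1 and passed the filter through ahES cells alone. Against R1, 27 were tested, 2 were higher in ahES cells (4.92% of all 12671 genes tested) and 2 lower (2.95%; 7.88% either way), with a median of −0.16 against −0.03. The 2 higher (Col2a1 and Col9a3) were near background in R1, and 1 of the 2 lower (Col13a1) in ahES cells. These passed the filter through the other group alone. For Col5a2 the differences were 3.48 ± 0.06 from CS1-1 and −0.35 ± 0.06 from R1, for Col3a1 3.14 ± 0.08 and −0.15 ± 0.08, for Col1a2 2.97 ± 0.07 and −0.40 ± 0.07, and for Col1a1 2.39 ± 0.14 and −0.13 ± 0.14. In limma the adjusted p-values against CS1-1 were 1.08e-19, 2.16e-15, 2.28e-16 and 9.54e-11. None of these 4 reached 2-fold against R1, and ahES and R1 arrays overlapped for each of them.

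Col4a1 was 2.05-fold higher in ahES cells than in CS1-1 (1.04 ± 0.11, and just under 2-fold without CS1-1 replicate 2, at 0.997) and differed by 0.01 ± 0.11 from R1, and Col4a2 by 1.27 ± 0.11 and 0.01 ± 0.11. Col4a5 was at least 3.28-fold higher than in CS1-1, and Col8a1 at least 6.54-fold. Col6a3 was 4.91-fold higher in ahES cells than in CS1-1 (limma adjusted p = 1.74e-13), while R1 lay above the ahES arrays without overlap, by 0.97 log2 units (limma adjusted p = 1.24e-07), short of 2-fold; it reached 2-fold without AH129-N1 replicate 2 (−1.02) or without R1 replicate 3 (−1.0). Col6a2 passed both ways, 2.02-fold higher than CS1-1 (limma adjusted p = 0.00126) and 2.15-fold lower than R1 (limma adjusted p = 0.000742). The first of these calls was lost without CS1-1 replicate 1 (0.63), and at 0.93 to 0.99 without AH129-5 replicate 2, AH129-N1 replicate 2 or 3, or AH129-NC1 replicate 1 or 3.

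Other members gave other patterns. Col13a1 was near background on the ahES arrays, from 4.42 to 5.86, against 7.09, 7.07 and 6.81 in CS1-1 and 6.59, 6.59 and 6.59 in R1. It was at least 2.67-fold lower than in CS1-1 and at least 2.02-fold lower than in R1 (limma adjusted p = 1.89e-05 and 0.000424). Col9a3 was at least 2.39-fold higher in ahES cells than in R1 (limma adjusted p = 5.26e-05) and did not pass against CS1-1 (0.52 ± 0.33; limma adjusted p = 0.184). Col2a1 was 3.78, 4.48 and 4.72 in R1, near background, and from 4.36 to 7.68 in ahES cells, which overlap through 1 low AH129-5 array (at least 1.87-fold; limma adjusted p = 6.6e-05).

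Of the 29 collagens above background in at least 1 ES line, 20 had their lowest line mean in CS1-1, 5 in R1 and 4 in an ahES line. The share of all genes lowest in each line was not computed, so this count only describes the members. Neighbours in the order of levels often overlapped. For Col3a1 the order was MEF (14.13), AH129-N1 (12.79), R1 (12.67), AH129-5 (12.58), AH129-NC1 (12.20), CS1-1 (9.38) and round sperm (5.64), and AH129-N1, R1 and AH129-5 overlapped in turn. For Col4a1 the arrays of AH129-NC1 (9.03), R1 (8.69), AH129-5 (8.63) and AH129-N1 (8.44) overlapped in turn, with MEF (13.97) above and CS1-1 (7.66) below all of them.

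Fibroblast markers moved with these collagens. Of 10 markers tested, 9 were higher in R1 than in CS1-1 (5.70% of all genes tested) and 8 were higher in ahES cells than in CS1-1 (8.19%). Twist2 and Prrx1 are in both counts and Twist1 in the first, although near background in CS1-1. Against R1, 0 were higher (4.92%) and 2, S100a4 and Snai2, lower in ahES cells (2.95%), with 2 higher and 7 lower at an unadjusted p under 0.05 in limma. Dcn, for example, was 3.20 ± 0.14 higher in R1 than in CS1-1 (limma adjusted p = 1.5e-12), and Postn 3.77 ± 0.10 (limma adjusted p = 9.91e-16). Pdgfrb, a receptor of fibroblasts and pericytes, named after its value was seen, did not pass, with −0.29 ± 0.13. The summed marker signal was 7036 to 7700 in R1 and 1166 to 1296 in CS1-1. Of the 5 pluripotency markers, 0 passed between these lines, and 1 was higher in R1 at an unadjusted p under 0.05 in limma. The part of the fibroblast markers in the collagen differences between ES lines was not tested.

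**Figure D4:**
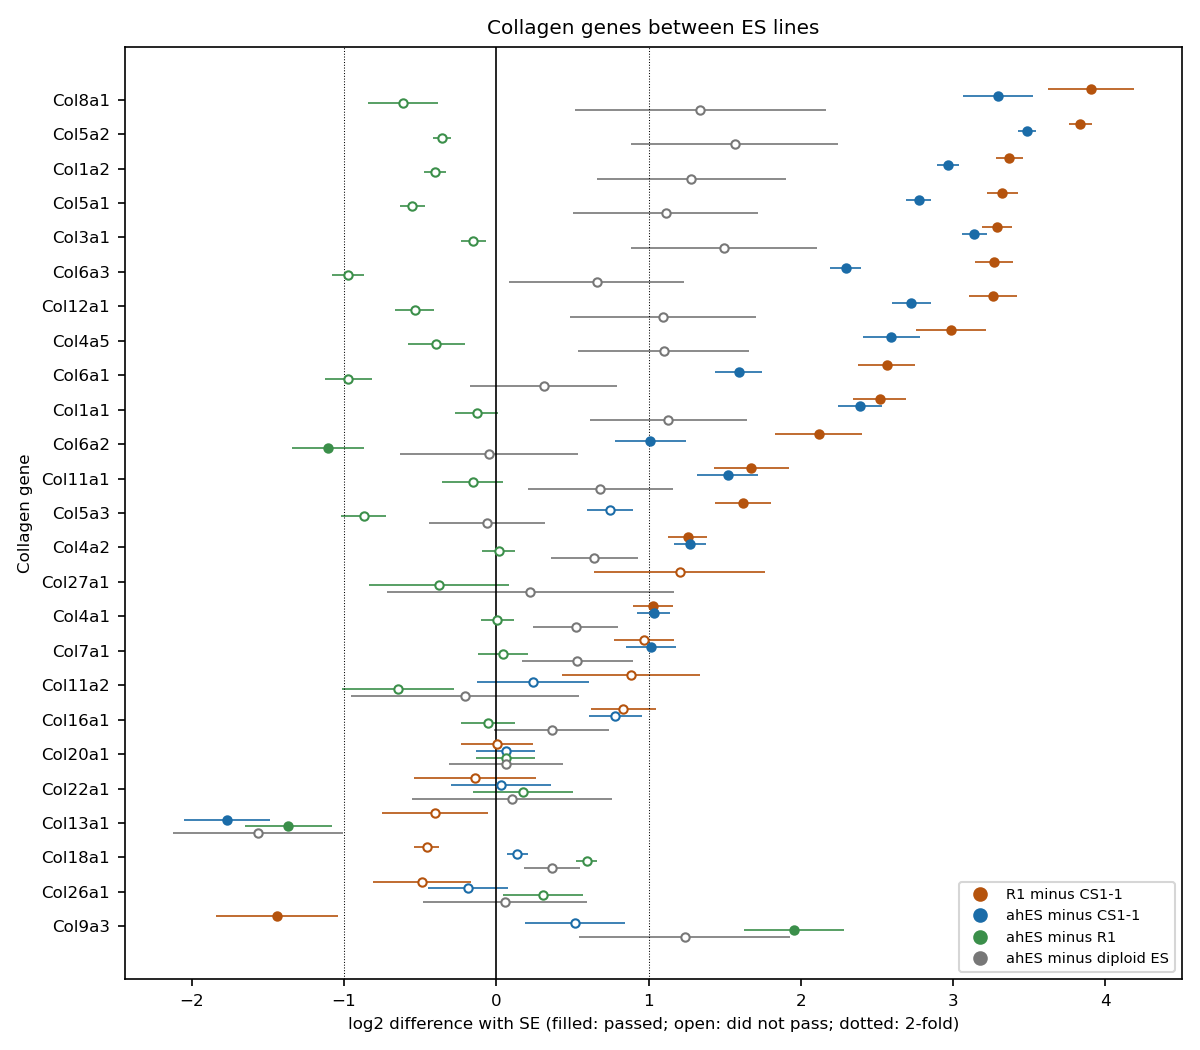
log2 differences with SE of the 25 collagens tested between R1 and CS1-1 (rows, ordered by that difference) in 4 comparisons that share arrays; filled points passed and open points did not. Points of ahES minus CS1-1 and R1 minus CS1-1 lie to the right for the upper rows, at 3.48 and 3.84 for Col5a2, while ahES minus R1 is at −0.35 and ahES minus diploid ES is at 1.56.

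The next comparison takes cell line as a random block over the 15 ES arrays, which allows for the likeness of arrays of 1 line (correlation 0.687). By it, no collagen passed between ahES and diploid ES cells. Of the 27 tested, 0 were higher (3.01% of all 12892 genes tested) and 0 lower (1.37%; 4.37% either way) in limma, and 6 were higher and 1 lower at an unadjusted p under 0.05. The median difference was 0.64 over these collagens and −0.03 over all genes tested. Col1a2 ran from 12.61 to 13.35 on the ahES arrays and from 9.82 to 13.36 on the diploid arrays, whose lower values were all CS1-1. Its difference was 1.28 ± 0.62 (limma adjusted p = 0.228), that of Col3a1 1.49 ± 0.61 (adjusted p = 0.145) and that of Col5a2 1.56 ± 0.68 (adjusted p = 0.173). Without line R1, which leaves CS1-1 as the only diploid line, 14 collagens passed, and without line CS1-1 none did. A p that misses the threshold does not show that ahES and diploid ES cells have alike collagen levels.

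Among the ahES lines themselves, 0 or 1 collagen passed in each pair. Between AH129-5 and AH129-N1, 25 were tested and none passed (5.33% of all 12152 genes tested passed, 3.88% higher and 1.46% lower; unadjusted p was under 0.05 for 10 higher and 2 lower collagens in limma). Between AH129-N1 and AH129-NC1, 25 were tested and none passed (3.15% of all 12079 genes, 0.985% higher and 2.17% lower; unadjusted p was under 0.05 for 3 higher and 6 lower collagens in limma). Between AH129-5 and AH129-NC1, 1 of 24 passed, where of all 12196 genes 5.37% passed, 3.22% higher and 2.15% lower. That gene was Col2a1, at 4.36, 6.21 and 6.31 in AH129-5 and 7.16, 6.55 and 7.68 in AH129-NC1, lower in AH129-5 by 1.5 ± 0.44 log2 units (limma adjusted p = 0.0104). Without AH129-5 replicate 1, the low array, the difference in limma was −0.87 (adjusted p = 0.0813), and without AH129-NC1 replicate 3 it was −1.23 (adjusted p = 0.0634).

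Smaller differences between ahES lines had adjusted p under 0.05 without reaching 2-fold. Col18a1 was 9.69, 9.57 and 9.35 in AH129-5, 9.73, 9.86 and 9.71 in AH129-N1 and 10.10, 10.28 and 10.14 in AH129-NC1. AH129-NC1 was above AH129-5 without overlap (0.64 log2 units; limma adjusted p = 6.3e-06). Col5a1 was 10.90, 10.94 and 10.98, 10.50, 10.69 and 10.64 and 10.46, 10.21 and 10.26 in the same order of lines. Here AH129-5 was the higher line (0.63 over AH129-NC1; limma adjusted p = 5.35e-05).

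Round sperm were compared with MEF and with ahES cells. Against MEF, 37 members were tested, 22 were higher in MEF (41.7% of all 14435 genes tested) and 10 were lower, that is, higher in round sperm (34.5%; 76.1% either way). Against ahES cells, 32 were tested, 12 were higher in round sperm (32.3% of all 14797 genes tested) and 15 lower (40.8%; 73.1% either way). The median difference over collagens was 1.63 for MEF minus round sperm (0.31 over all genes tested) and 0.13 for round sperm minus ahES (−0.32). Against ahES cells, the shares of collagens in both directions were near those of all genes. The comparisons share the round sperm arrays. Of the 22 and 10 against MEF, 10 and 5 were near background in the lower group. Against ahES cells, 4 of the 12 (Col4a4, Col17a1, Col19a1 and Col23a1) were near background in ahES cells and 5 of the 15 (Col4a5, Col5a2, Col8a1, Col11a1 and Col12a1) in round sperm. These passed the filter through the other group alone, so their count supports nothing by itself.

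Col1a2, Col3a1, Col5a2, Col4a1 and Col4a2 were low in round sperm. Col1a2 was 6.20, 6.67 and 7.20 in round sperm, 309-fold under MEF and 75.1-fold under ahES cells (limma adjusted p = 1.91e-20 and 4.78e-20). Col3a1 was 6.29, 5.56 and 5.07, 360-fold and 118-fold lower. Col5a2 was near background at 5.62, 5.03 and 3.89, at least 545-fold under MEF and at least 61.3-fold under ahES cells. For these 3 genes every round sperm array was below every MEF and ES array. Col4a1 was 6.32, 6.23 and 5.94 (224-fold under MEF, 5.80-fold under ahES cells) and Col4a2 5.89, 6.52 and 6.92 (102-fold and 3.50-fold). Col18a1, which stayed within 2-fold between MEF and ahES cells, was 5.92, 6.34 and 6.98 in round sperm, 10.7-fold under ahES cells (limma adjusted p = 3.19e-16).

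Col22a1, Col16a1, Col20a1 and Col19a1 were high in round sperm by the probe sets used. These are FACIT collagens, which attach to the surface of fibrils, as is Col12a1, which was at least 12.6-fold lower in round sperm than in ahES cells by the probe set used. Col22a1, known from tissue junctions such as that of muscle and tendon, was 12.61, 12.98 and 12.97 in round sperm and had group means of 5.91 to 6.22 in the other groups. Round sperm were 109-fold above ahES cells (6.77 ± 0.30; limma adjusted p = 2.6e-15) and 101-fold above MEF. Col16a1 was 12.04, 12.68 and 12.64 in round sperm against 10.28, 10.37 and 10.21 in MEF and 7.13 to 7.93 in ahES cells (29.9-fold over ahES; limma adjusted p = 4.15e-17). Col20a1 was 9.23, 9.53 and 9.36, 9.49-fold over ahES cells, and Col19a1 8.48, 8.31 and 8.28, at least 7.21-fold over ahES cells. None of the 4 overlapped with ahES or MEF arrays. Col2a1 was 9.80, 9.72 and 9.65, 9.95-fold over ahES cells and 2.64-fold over MEF (limma adjusted p = 2.47e-09 and 0.00212), and Col9a3 7.84, 8.05 and 8.14, 2.22-fold over ahES cells and at least 5.93-fold over MEF. With the mean over its probe sets, which stood at 8.01, 4.05 and 5.72 in round sperm, Col9a3 did not pass against ahES cells (0.18 ± 0.23; limma adjusted p = 0.468). The remaining members higher in round sperm than in ahES cells were Col17a1, Col27a1, Col9a1, Col14a1, Col4a4 and Col23a1, with Col17a1, Col4a4 and Col23a1 at least 1.71- to 3.63-fold higher over near-background levels in ahES cells, and Col27a1, Col9a1 and Col14a1 at 2.06 to 2.29 log2 units. Col27a1 did not pass with the mean over its probe sets (0.60 ± 0.30; limma adjusted p = 0.0678), which stood at 8.22 and 5.69 in round sperm.

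Probe sets of a gene disagreed in round sperm for several members, so that those values hold for a probe set rather than the gene. Of 3 Col22a1 probe sets, 1 was high in round sperm (12.85) and the others were at 5.38 and 5.07. Col20a1 had 3 of 4 high, at 9.37, 10.74 and 10.55, and the fourth at 3.72. Col6a4 was near background by the probe set used (5.48 in round sperm), yet its other probe set was at 9.97 in round sperm and 3.66 to 3.89 elsewhere. Col5a1 was at 11.05 by the probe set used, and at 6.44 and 4.61 by the others, and with the mean over its probe sets the difference from ahES cells turned from 0.43 to −1.23 (limma adjusted p = 1.42e-06). Col12a1 was at 3.95 by the probe set used and 8.35 by another. Col4a5 was at 4.89 by the probe set used and 6.98 by the other, Col8a1 at 4.96 against 6.74 and 3.83, and Col6a2 at 6.35 against 7.53. With the mean over probe sets, Col4a5 (−0.81) and Col6a2 (−0.44) did not pass in round sperm minus ahES. Col19a1 was at 8.36 by the probe set used and at 4.69 and 6.25 by the others, whose differences from ahES cells were 0.26 and 1.72. With the mean over its probe sets, Col19a1 fell under 2-fold in MEF minus round sperm (−0.78). Col16a1 and Col2a1 have 1 probe set each. The 2 Col3a1 probe sets were both lower in round sperm than in ahES cells (−6.88 and −3.66).

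**Figure D5:**
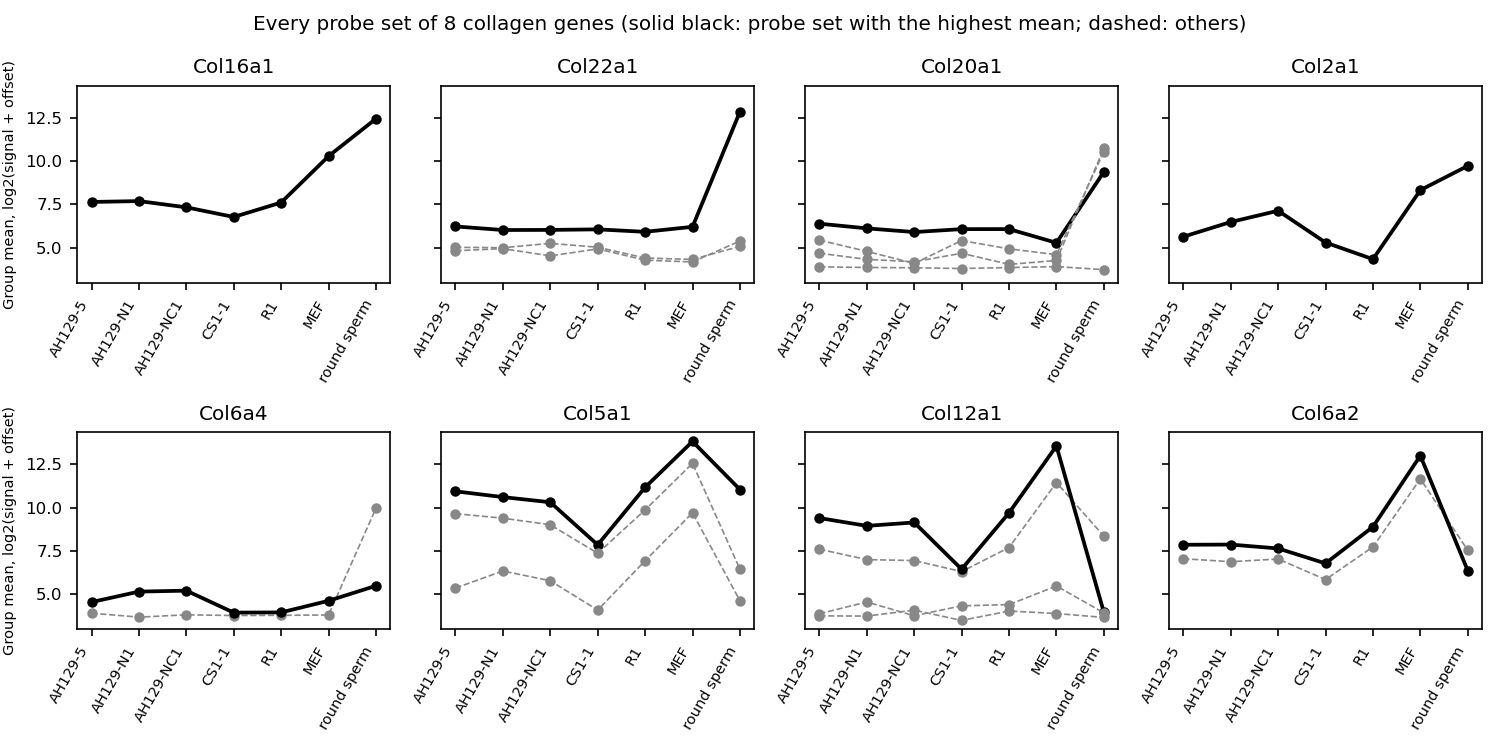
Group mean level, log2(signal + offset), of every probe set of 8 collagen genes across the 7 groups; the solid black line is the probe set used and dashed grey lines are the others. For Col5a1 the used probe set stays at 11.05 in round sperm where the others fall to 6.44 and 4.61, and for Col6a4 the unused probe set rises to 9.97.

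Markers of other testis cells were read beside these values. Of 8 markers of Sertoli, Leydig and peritubular cells, 5 lay above the 40th percentile on each round sperm array, and their summed signal was 862 to 1101, against 1162 to 2306 in ahES lines and 36205 to 41589 in MEF, where the muscle actin Acta2 made up most. Of all genes, 63.8% lay above the 40th percentile on all 3 round sperm arrays, a stricter rule than a count on single arrays. Acta2 was at 8.88 in round sperm, Clu at 7.75, Star at 6.19 and Sox9 at 5.89, while Amh, a Sertoli cell hormone, Cyp11a1 and Myh11 were near background. Cyp17a1, a Leydig cell enzyme, was at 6.87, against near-background means of 3.93 to 4.72 in the other groups. In round sperm minus ahES, 2 of 6 tested were higher (32.3% of all genes tested) and 2 lower (40.8%). The summed signal of the 5 spermatid markers was 95852 to 150406. None of the testis somatic markers was listed at 0, and their part in the collagen values of round sperm was not tested.

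Genes that make and assemble collagen chains were read as a list of 21, of which 20 were on the array. In MEF minus ahES, 13 of 19 tested were higher in MEF and 0 lower (21.1% and 21.2% of all genes tested), with a median of 2.28 log2 units against −0.08 over all genes tested. Counts of these lists include genes near background in the lower group, which passed the filter through the other group alone. P4ha2, a prolyl hydroxylase subunit, was 3.12 ± 0.09 higher (limma adjusted p = 7.43e-18), the chaperone Serpinh1 (Hsp47) 3.61 ± 0.16 (adjusted p = 8.21e-14), P3h4 4.71 ± 0.13 and Fkbp14 2.33 ± 0.09. Between the diploid lines 2 of 17 were higher in R1 (5.70% of all genes tested), P3h3 at 1.21 ± 0.25 and the transcription factor Creb3l1 at 1.02 ± 0.24, with a median of 0.14 against −0.02. In ahES minus CS1-1, 0 of 17 were higher (8.19%) and 1 (5.52%), the lysyl hydroxylase Plod1, was lower (−1.03 ± 0.12; limma adjusted p = 4.42e-07), while 9 were higher and 6 lower at an unadjusted p under 0.05 in limma. In round sperm minus ahES, 11 of 18 were lower (40.8% of all genes tested) and 2, P4ha3 and Mia3, higher (32.3%), with P4hb at −4.80 ± 0.07 and Ppib at −4.43 ± 0.07.

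Processing and crosslinking enzymes formed a list of 14, with 11 on the array. In MEF minus ahES, 8 of 10 tested were higher in MEF (21.1% of all genes tested), among them Pcolce, which speeds removal of the procollagen tail, at 3.16 ± 0.06, Loxl1 at 5.14 ± 0.09 and Pxdn, which crosslinks type IV collagen, at 4.35 ± 0.14. In R1 minus CS1-1, 3 of 7 were higher (5.70%): Lox, which crosslinks fibrillar collagen, at 3.39 ± 0.11 (limma adjusted p = 9.22e-14), Loxl1 at 2.33 ± 0.13 and the procollagen protease Bmp1 at least 3.12-fold. In ahES minus CS1-1, 4 of 8, Lox, Loxl1, Bmp1 and Pcolce2, were higher (8.19%) and Pcolce was lower (−1.27 ± 0.05; 5.52%). Pcolce was also lower in ahES cells than in R1 (−1.55 ± 0.05) and, with the line as a block, than in diploid ES cells (−1.41 ± 0.16; limma adjusted p = 2.03e-06), where no collagen passed. In round sperm minus ahES, 1 of 8 was higher (32.3%) and 3 lower (40.8%), with Lox at least 65.2-fold lower.

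Collagen receptors and turnover genes formed a list of 19, with 18 on the array. In MEF minus ahES, 13 of 16 tested were higher in MEF (21.1% of all genes tested), among them Timp2 (3.67 ± 0.10), the membrane collagenase Mmp14 (4.18 ± 0.13) and the integrin chain Itgb1 (2.36 ± 0.11). In R1 minus CS1-1, 7 of 11 were higher (5.70%), with the collagen receptor Ddr2 at 2.72 ± 0.15 and Timp3 at 3.39 ± 0.14, and in ahES minus CS1-1, 8 of 14 (8.19%), with Ddr2 at 2.95 ± 0.12 and the collagenase Mmp13 at least 7.58-fold higher. With the line as a block, Ddr2 and Mmp13 were higher in ahES than in diploid ES cells (limma adjusted p = 0.0339 and 0.0104), 2 of 14 tested (3.01%), Ddr2 by 1.59 ± 0.47. Mmp13 was near background in CS1-1. In round sperm minus ahES, 8 of 15 were lower (40.8%) and 3 higher (32.3%), the integrin chains Itga1 (at least 46.2-fold) and Itga2 (at least 20.4-fold) and Timp2 (2.47 ± 0.10).

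Partners of type IV collagen in basement membranes, a list of 10 with all on the array, moved both ways. In MEF minus ahES, 4 were higher (Lamb1 at 3.43 ± 0.17, Sparc, Nid1 and Lamb2) and 3 lower (Lama1 at −4.90 ± 0.09, Nid2 at −3.22 ± 0.11 and Lama5), against 21.1% and 21.2% of all genes tested, with a median of 0.04. Between R1 and CS1-1 1 passed, the laminin chain Lama1, lower in R1 (−1.0 ± 0.06; limma adjusted p = 8.93e-11; 4.18% of all genes tested). In ahES minus CS1-1 none of the 10 passed (13.7% of all genes tested), while 3 were higher and 4 lower at an unadjusted p under 0.05 in limma. In round sperm minus ahES, 9 of 10 were lower (40.8%), with Lama1 at least 30.2-fold lower, and the median was −5.14 against −0.32 over all genes tested.

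Primitive and parietal endoderm cells, which also make type IV collagen, were read through 10 markers. Their summed signal was 451 to 849 in the ahES lines, 432 to 576 in R1, 276 to 328 in CS1-1 and 3226 to 3453 in MEF. Of 6 tested, 3, Dab2, Lrp2 and Thbd, each near background in CS1-1, were higher in R1 than in CS1-1 (5.70% of all genes tested), and Gata6, Sox17 and Gata4 did not pass. Of 5 endothelial markers, 2 were tested between these lines and both were higher in R1 (Kdr at least 2.0-fold, over a near-background level in CS1-1, and Tek at 1.93 ± 0.16). The part of these cell types in Col4a1 and Col4a2 was not tested.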

How the data were processed

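RNA of 21 samples was measured on Affymetrix mouse arrays of 45101 probe sets, of which 34945 carried 1 gene symbol, 932 several and 9160 none. The deposited values are log2 MAS5 signals per probe set, MAS5 per the submitters' processing notes; the log base was read from the values, which give a 2% trimmed mean signal of 500 when taken as powers of 2. These were returned to signals, an offset of 9.70 (the median 20th percentile) was added, and log2 was taken again. limma 3.58.1 with statmod 1.5.0 in R 4.3.3 (lmFit; eBayes with trend and robust) was fitted on the whole table, with group means over 21 arrays for comparisons with MEF or round sperm and line means over 15 ES arrays otherwise. ahES minus diploid ES had the line as a random block (duplicateCorrelation, 0.687). Tested genes had 3 arrays of a compared group above the 40th percentile. Benjamini-Hochberg adjustment ran over all genes tested in each of 11 comparisons. Scripts were tested on simulated data. The members, gene lists and tests were chosen with earlier results of these data known. Per-array values are given for 15 key collagens and up to 4 rises and falls per comparison, and other lists by up to 4 members of smallest adjusted p or sets of 5 or fewer that passed. Alternatives covered offset, filter, probe set, normalization, moderation, line, replicate block and leaving out arrays. The number of arrays limits precision.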

Additional observations from a re-analysis of the deposited data

Results flagged for a closer look

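Of 50 sets of 9 ahES or 6 diploid ES arrays examined for a lone array, 1 stood apart. Col2a1 was 4.36 in AH129-5 replicate 1, while the next ahES array was at 6.21, a gap of 0.559 of the whole range against a critical value of 0.493. Such a rule marks about 1 set in 20 by chance. The Col2a1 call between AH129-5 and AH129-NC1 was lost without this array (−0.87), and also without AH129-NC1 replicate 3 (−1.23) or at an offset of 50 (−0.95). The cause of the low value was not tested.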

How the results depend on the processing

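Calls of collagens kept their direction under all alternatives run, and 1 value reversed: Col5a1 in round sperm minus ahES, not called in the report at 0.43, was −1.23 with the mean over its probe sets, where the probe sets disagree. Counts of collagens passing changed by more than 1.5 times only as follows. For ahES minus diploid ES, with 0 in the report, the count was 2 with no filter, 1 with the mean over probe sets, 1 with 1 mean per line, 5 with no line block and 14 without line R1. For ahES minus R1, with 4, it was 2 at an offset of 50 and 1 with the filter at the 60th percentile. For AH129-5 minus AH129-NC1, with 1, it was 2 at an offset of 1, 0 at an offset of 50 and 0 with the filter at the 60th percentile. Apart from the probe sets, the cause was not tested.

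Leaving out 1 array at a time gave 27 to 29 collagens for MEF minus ahES, 27 to 29 for MEF minus diploid ES, 29 to 31 for MEF minus round sperm, 26 to 29 for round sperm minus ahES, 0 to 1 for ahES minus diploid ES, 15 to 19 for ahES minus CS1-1, 4 to 6 for ahES minus R1 and 15 to 18 for R1 minus CS1-1. It gave 0 to 1 for AH129-5 minus AH129-N1 (1 without AH129-5 replicate 1), 0 to 2 for AH129-5 minus AH129-NC1 (0 without AH129-5 replicate 1 or AH129-NC1 replicate 3, 2 without AH129-5 replicate 2 or AH129-NC1 replicate 1) and 0 for AH129-N1 minus AH129-NC1. Of the collagens passing, 23 of 28 in MEF minus ahES, 11 of 18 in ahES minus CS1-1 and 13 of 16 in R1 minus CS1-1 passed in every setting in which they were tested. A setting whose filter left a gene out was not held against that gene.

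Same-numbered replicates of different groups did not deviate together, with a median correlation of −0.01 over 63 pairs and 2 pairs over 0.1. With the replicate block, 28 collagens passed in MEF minus ahES, 29 in MEF minus diploid ES, 31 in MEF minus round sperm, 27 in round sperm minus ahES, 0 in ahES minus diploid ES, 18 in ahES minus CS1-1, 4 in ahES minus R1, 17 in R1 minus CS1-1, and 0, 1 and 0 between ahES lines.

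Among all genes, ahES minus diploid ES called 564, and 282 with 1 mean per line, 967 with no line block and 1106 without line R1. An offset of 50 took ahES minus CS1-1 from 1747 to 1025, ahES minus R1 from 998 to 544, R1 minus CS1-1 from 1196 to 704, AH129-5 minus AH129-N1 from 648 to 317, AH129-5 minus AH129-NC1 from 655 to 315 and AH129-N1 minus AH129-NC1 from 381 to 134. The filter at the 60th percentile gave 794 for R1 minus CS1-1, 421 for AH129-5 minus AH129-N1 and 221 for AH129-N1 minus AH129-NC1. Quantile normalization moved the median of all genes by −0.23 in MEF minus round sperm and 0.20 in round sperm minus ahES, and no called collagen changed direction with it. Low signal limits the members near background.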
